A study of Homo sapiens with 6 samples.

Results

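The mitochondrial ribosomal protein genes were followed in RPE-1 cells depleted of the splicing factor SON. The members were taken by name and biotype: every gene annotated as protein-coding whose symbol begins with MRPL or MRPS and a digit. This rule found 78 of the 58735 genes in the count table, and it used no measured value. RPE-1 is an established human retinal pigment epithelial cell line, and the line used here carried GFP-tagged CETN2, a centriole protein, and PLK4 under a doxycycline-inducible rtTA promoter. Doxycycline at 1 µg/mL had induced PLK4, a kinase of centriole duplication, in the cells of all 6 libraries. In 3 libraries the cells had received a scramble siRNA (siControl) and in 3 an siRNA against SON (siSON). PLK4 induction was therefore shared by both groups, and its own effect cannot be seen here. The comparison addresses how the mRNA of these genes changes when SON is reduced.

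Mitochondria carry their own ribosome, the mitoribosome, which translates only the few messenger RNAs encoded by mitochondrial DNA, all of them for subunits of the respiratory chain and ATP synthase. Its ribosomal RNAs are encoded in mitochondria, whereas its proteins are encoded in the nucleus, made in the cytosol and imported. The small subunit reads the messenger RNA and the large subunit joins the amino acids; many of the proteins descend from those of bacterial ribosomes, and the others, called mitochondria-specific here, take places that no bacterial ribosomal protein takes. SON is a protein of nuclear speckles that supports the splicing of many transcripts, including those with weak splice sites.

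Because the members are nuclear genes that serve a single particle, the bases around their transcription starts are shown first, taken from RefSeq (GRCh38.p14). RefSeq windows of 250 bases before to 50 bases after the start were matched by symbol for 69 of the 78 members and searched on both strands for 4 motifs of factors known from genes of mitochondrial function. The letters AAGATGG, the core of the YY1 motif, were in the windows of 23 members (33.3%), against 7.55% of the 10299 windows of protein-coding genes tested and 6.06% of all 27305 windows. The matches of 9 members whose levels are given by library below are shown with 8 bases on each side, 5′ to 3′ on the strand that carries the motif, with the motif in capitals:
MRPL20 (chr1:1407264-1407286, minus strand): acccgggcAAGATGGcagcggcg
MRPL45 (chr17:38297173-38297195, plus strand): gcgggaacAAGATGGcagccccc
MRPL46 (chr15:88467366-88467388, minus strand): gagaacgaAAGATGGcggcgccc
MRPL49 (chr11:65122107-65122129, plus strand): ctaccgcgAAGATGGagtcgaga
MRPL50 (chr9:101398581-101398603, minus strand): tctcatcgAAGATGGcggcgcga
MRPL51 (chr12:6493227-6493249, minus strand): taaggcccAAGATGGctgtcttc
MRPS18A (chr6:43687768-43687790, minus strand): ggtttttgAAGATGGcggccctc
MRPS18B (chr6:30617855-30617877, plus strand): cgtacgtcAAGATGGcggcgtct
MRPS24 (chr7:43869484-43869506, minus strand): cttggcccAAGATGGcggcctcc
In 8 of these 9 the motif lay after the start and on the gene's own strand, with its first base between positions 9 and 24 counted from 1 at the start. In MRPL49 it lay on the gene's own strand, 68 bases before the start. Of all 24 matches in the 23 members, 16 lay after the start on the gene's own strand. The letters CCGGAAG, an ETS-factor motif, were in 29 of 69 member windows (42.0%), against 18.7% of the protein-coding genes tested and 10.7% of all windows. For GCGCATG, the core of the NRF1 motif, the shares were 10.1% of members and 7.45% of the protein-coding genes tested (4.67% of all windows). For the E-box CACGTG they were 8.70% and 9.99% (7.44% of all windows).

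Library totals ran from 54572365 to 69764836 counts. SON itself stood at 295, 313 and 284 CPM (read counts scaled to a common library size) in the siControl libraries and 67.96, 69.96 and 64.999 in the siSON libraries, a fall to 22.8% of control (log2 fold change -2.14, SE 0.057, adjusted p = 6.78e-10). CPM values carry TMM scaling (trimmed mean of M values), and tests are edgeR's quasi-likelihood test with Benjamini-Hochberg adjustment over all 16591 genes tested; log2 fold changes are siSON over siControl and genes with an adjusted p under 0.05 are said to have been called. The labels do not say that the libraries of a group came from separate cultures, so p-values measure only the spread between these libraries. In bulk RNA, fewer cells of one kind and less RNA per cell cannot be told apart. Of 10 markers of retinal pigment epithelium 6 were below 1 CPM in every library, among them RPE65, TYR and TTR, while MITF and OTX2 were present in every library at 19.7 to 37.0 CPM. The summed level of the 10 was 51.9 to 53.8 CPM in siControl and 74.4 to 83.6 CPM in siSON, with higher means in siSON for MITF, OTX2 and BEST1 and lower means for PMEL (2.06 against 0.200 CPM) and SERPINF1 (0.877 against 0.360 CPM). The epithelial keratins KRT8 and KRT18 summed to 764 to 863 CPM in siControl and 1331 to 1392 CPM in siSON. Of 8 markers of blood, endothelium, neurons and hepatocytes, 3 had 0 counts throughout and the sum was 7.20 to 8.23 CPM in siControl and 9.27 to 10.4 CPM in siSON. Of these the neuronal SNAP25 had a mean of 5.05 CPM in siControl and 9.11 CPM in siSON, whereas PTPRC of blood (1.44 and 0.292 CPM) and PECAM1 of endothelium (1.14 and 0.520 CPM) were lower in siSON. The part of these shifts in the results was not tested.

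All 78 members passed the filter on low counts. More of them rose than fell: 44 were called higher, 17 were called lower and 17 were not called. SON depletion moved most genes in these libraries, so the 61 called members (78.2%) stand beside 71.7% of all genes tested. In the table as a whole 35.2% were called higher and 36.5% lower. Among the 13008 protein-coding genes tested, 5242 were called higher and 4830 lower. The median log2 fold change of the members was 0.30, against -0.03 over all genes tested and 0.03 over the 13008 protein-coding genes tested, of which 77.4% were called. Most changes were modest. At least a 2-fold change was called for 7 members, whereas 29.3% of all genes tested changed that much. Of these 7, MRPS24, MRPL53, MRPS17 and MRPS9 rose (8.72% of all genes) and MRPS26, MRPL50 and MRPS23 fell (20.5% of all genes). MRPL48, just under 2-fold, is not among them. Without siSON replicate 1 only 4 members changed at least 2-fold. The 3 siSON libraries lay wholly above or wholly below the 3 siControl libraries for 63 members (80.8%), against 75.1% of all genes. The split depends in part on scaling: with the library total alone, which lowered the median of all genes by 0.20 on the log2 scale, 36 members were called higher and 23 lower and their median was 0.11. With cyclic loess, where the median log2 fold change of all genes was 0.04, the counts were 43 and 20 and the members' median was 0.24.

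**Figure D1:**
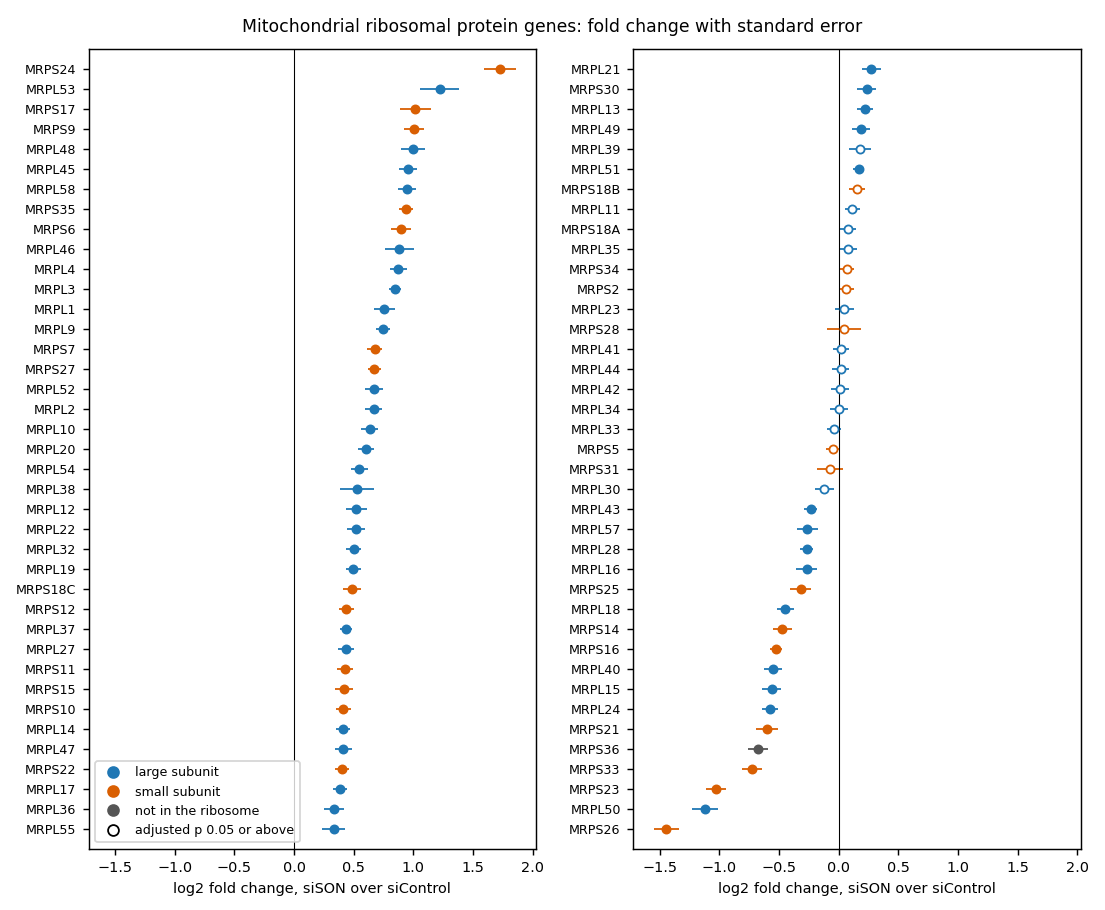
Log2 fold change (siSON over siControl, horizontal axis) of each of the 78 members, with bars for the standard error, colored by subunit; open circles mark an adjusted p of 0.05 or above. The members run from MRPS26 at -1.44 to MRPS24 at 1.72, with 44 called higher and 17 called lower.

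Summed over all 78 genes, the level was 2818, 2738 and 2837 CPM in the siControl libraries and 3427, 3269.6 and 3327 CPM in the siSON libraries. The groups did not overlap. The same sum was also taken as a share of all counts, which rests on the library total and carries no TMM scaling. It was 0.299% ± 0.00422 (SD, n = 3) in siControl and 0.312% ± 0.00453 (SD, n = 3) in siSON, a smaller difference. Genes of the large subunit summed to 1863 ± 33.1 CPM in siControl and 2253 ± 49.5 CPM in siSON. Genes of the small subunit summed to 917 ± 20.3 CPM and 1077 ± 30.8 CPM. The ratio of both sums was 2.03 ± 0.0142 in siControl and 2.09 ± 0.0155 in siSON (SD, n = 3), with no overlap between groups.

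The rises were led by small-subunit genes of bacterial descent and by mitochondria-specific large-subunit genes, with MRPS35 the exception among the 8 largest. MRPS24 (chromosome 7, 43866558 to 43869893, minus strand, GENCODE 29 on GRCh38, as for all positions of genes below) encodes the mitochondrial relative of bacterial protein S3. Its level was 3.31, 3.18 and 2.93 CPM in siControl and 11.9, 10.4 and 8.83 CPM in siSON. Every siSON library was over 2 times the highest control, and the fitted rise was 1.72 on the log2 scale (SE 0.133, adjusted p = 4.71e-07). MRPL53 (chromosome 2, 74471958 to 74473322, minus strand), a protein at the base of the stalk that recruits translation factors, stood at 1.53, 1.84 and 2.11 CPM in siControl and 4.72, 3.90 and 4.17 CPM in siSON. It was among the 3 least abundant members per kilobase, and its groups did not overlap (log2 fold change 1.22, SE 0.164, adjusted p = 4.40e-05). MRPS17 (chromosome 7, 55951819 to 55956501, plus strand), another protein of bacterial descent, stood at 2.78, 3.19 and 3.13 CPM in siControl and 6.81, 5.95 and 5.65 CPM in siSON. All siSON libraries lay above all controls (log2 fold change 1.02, SE 0.130, adjusted p = 2.93e-05).

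These 3 genes share exons with a gene on the same strand, and how shared reads were counted is not given in the sources used here. MRPS24 shares 23.2% of its exon bases with the read-through gene URGCP-MRPS24, which had 0 to 5 counts per library. MRPL53 shares 45.2% with CCDC142, which itself rose (log2 fold change 1.36) from 559, 609 and 660 counts in siControl to 1359, 1185 and 1095 counts in siSON. MRPS17 shares 27.0% with NIPSNAP2 (log2 fold change 0.19) and with AC092647.5. The part of shared exons in these rises was not tested. Among the 62 members that share no exon with a gene on their strand, 35 were called higher and 15 lower, with a median log2 fold change of 0.25, and among the 16 that do, 9 were called higher and 2 lower, with a median of 0.52.

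The other large rises were in genes of higher level that share no exon on their strand. MRPS9 (chromosome 2, 105037983 to 105099960, plus strand), of bacterial descent, went from 23.5, 22.98 and 26.1 CPM in siControl to 53.8, 46.1 and 45.8 CPM in siSON. MRPL48 (chromosome 11, 73787316 to 73865133, plus strand), a protein of the central protuberance of the large subunit, went from 8.04, 7.63 and 8.62 CPM to 17.7, 14.4 and 16.4 CPM. MRPL45 (chromosome 17, 38297023 to 38323218, plus strand), which lines the tunnel exit and faces the inner membrane, went from 28.1, 28.6 and 27.6 CPM to 60.2, 52.003 and 51.3 CPM. In each of these genes every siSON library lay above every control, and the fitted log2 fold changes were 1.00, 1.00 and 0.96, with standard errors of 0.084, 0.101 and 0.074 and edgeR adjusted p-values of 9.19e-07, 4.47e-06 and 5.11e-07. MRPL58 (chromosome 17, 75012670 to 75021261, plus strand), a large-subunit protein related to release factors that frees peptides from stalled ribosomes, went from 16.5, 15.4 and 16.1 CPM to 31.96, 29.5 and 30.96 CPM. MRPS35 (chromosome 12, 27710773 to 27756295, plus strand), a mitochondria-specific small-subunit protein, went from 52.5, 49.3 and 52.9 CPM to 103, 96.4 and 97.4 CPM. Their log2 fold changes were 0.95 (SE 0.072, adjusted p = 4.39e-07) and 0.94 (SE 0.058, adjusted p = 8.13e-08), so both genes came close to doubling.

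The falls were led by genes of mitochondria-specific proteins, and 5 of the 8 largest were in genes named for the small subunit. MRPS26 (chromosome 20, 3045945 to 3048254, plus strand) stood at 26.5, 25.4 and 22.98 CPM in siControl and 7.94, 9.21 and 10.4 CPM in siSON. It was the largest fall of any member, to 36.8% of control (log2 fold change -1.44, SE 0.107, adjusted p = 3.45e-07). MRPL50 (chromosome 9, 101387633 to 101398614, minus strand), of the large subunit, stood at 13.3, 15.7 and 17.3 CPM in siControl and 7.41, 7.02 and 6.83 CPM in siSON, a fall to 45.9% (log2 fold change -1.12, SE 0.111, adjusted p = 3.59e-06). MRPS23 (chromosome 17, 57834781 to 57850056, minus strand), of the small subunit, stood at 34.3, 31.7 and 35.2 CPM in siControl and 14.97, 17.6 and 17.2 CPM in siSON (log2 fold change -1.03, SE 0.084, adjusted p = 7.72e-07). In all 3 genes the highest siSON library was below the lowest control.

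MRPS33 (chromosome 7, 141002610 to 141015228, minus strand), also of the small subunit, fell from 21.1, 21.8 and 22.9 CPM in siControl to 12.96, 12.7 and 14.1 CPM in siSON. MRPS36 (chromosome 5, 69217760 to 69230129, plus strand) carries a ribosomal name but is now known as a part of the 2-oxoglutarate dehydrogenase complex of the citric acid cycle, and it fell from 16.3, 17.4 and 17.3 CPM to 10.01, 10.7 and 11.3 CPM. MRPS21 (chromosome 1, 150293720 to 150308979, plus strand), of bacterial descent, fell from 12.5, 12.1 and 11.5 CPM to 8.36, 8.14 and 7.30 CPM. The groups of all 3 genes were apart, with log2 fold changes of -0.73, -0.68 and -0.60, standard errors of 0.08, 0.085 and 0.095 and edgeR adjusted p-values of 8.74e-06, 2.50e-05 and 0.000153. MRPL24 (chromosome 1, 156737303 to 156741590, minus strand), a tunnel-exit protein of bacterial descent, fell from 30.8, 28.9 and 30.5 CPM to 20.5, 20.01 and 19.9 CPM. MRPL15 (chromosome 8, 54135210 to 54147901, plus strand), also of bacterial descent, fell from 46.005, 38.1 and 40.8 CPM to 26.8, 28.6 and 29.2 CPM. Their log2 fold changes were -0.58 (SE 0.068, adjusted p = 1.55e-05) and -0.56 (SE 0.081, adjusted p = 7.39e-05), with no overlap between groups. None of these 8 genes shares an exon with a gene on its strand. Pseudogene copies are annotated for MRPS21 (8 copies), MRPS36 (5), MRPL50 and MRPS33 (3 each) and MRPL15 (1), and among the rises for MRPS17 (4), MRPL45 and MRPS35 (2 each) and MRPL48 and MRPL53 (1 each). How reads that fit a gene and its copy were counted is not given in the sources used here, so these levels are uncertain to that extent. Over all members, 19 were called higher and 8 lower among the 34 with a pseudogene (median 0.30), and 25 and 9 among the 44 without (median 0.30).

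**Figure D2:**
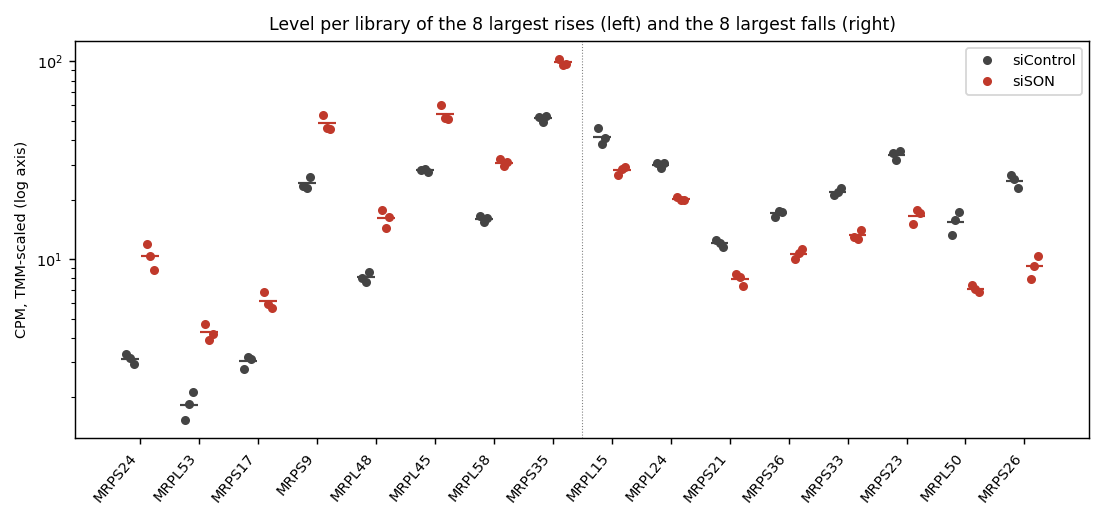
Level in each library (CPM, TMM-scaled, log axis) of the 8 largest rises and the 8 largest falls; each point is a library and each short line a group mean. No gene's siControl and siSON points overlap, with MRPS24 at 2.93 to 3.31 CPM against 8.83 to 11.9 CPM and MRPS26 at 23.0 to 26.5 CPM against 7.94 to 10.4 CPM.

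Members that rose and members that fell both carried the ETS letters. Of the members with a window, 15 of 40 that were called higher in siSON held the match (37.5%), as did 9 of 15 called lower (60.0%) and 5 of 14 not called (35.7%). The YY1 letters were in 17 of 40 (42.5%), 2 of 15 (13.3%) and 4 of 14 (28.6%). These shares were not tested against each other. Among the 8 largest rises and the 8 largest falls, 7 genes held an ETS match, and the match nearest the start is printed for each with the motif in capitals:
MRPL48 (chr11:73787803-73787825, minus strand): ttttagttCCGGAAGcttctgaa
MRPL53 (chr2:74472666-74472688, plus strand): cctccgccCCGGAAGaactcgtg
MRPL58 (chr17:75012654-75012676, plus strand): agcgcccgCCGGAAGcagtcgca
MRPS21 (chr1:150293860-150293882, minus strand): ctagcccaCCGGAAGggttctca
MRPS23 (chr17:57850044-57850066, plus strand): taccggaaCCGGAAGcggctgct
MRPS26 (chr20:3046007-3046029, minus strand): accgtgccCCGGAAGcggcgcgg
MRPS33 (chr7:141014938-141014960, plus strand): ccctcgtcCCGGAAGgcccgccc
MRPL48, MRPL53 and MRPL58 belong to the largest rises, all 8 of which had a window. MRPS21, MRPS23, MRPS26 and MRPS33 belong to the largest falls, of which 6 of 8 had a window and MRPL15 and MRPS36 had none. A match describes letters in a window and shows no binding.

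Both subunits had more genes called higher than lower. Of 51 large-subunit members 31 were called higher and 9 lower, with a median log2 fold change of 0.33, and of 26 small-subunit members 13 were called higher and 7 lower, with a median of 0.28. MRPS18A and MRPS30 count among the large subunit, where their proteins sit despite their names. By descent, the 45 members with a bacterial relative had 28 called higher and 8 lower (median 0.41), and the 31 mitochondria-specific members had 15 called higher and 8 lower (median 0.17). With the library total the former had 25 and 12 and the latter 11 and 10, with medians of 0.22 and -0.030. The mitochondria-specific small-subunit genes were evenly divided, with 3 of 10 called higher and 4 lower (median -0.003). The 16 small-subunit genes of bacterial descent had 10 called higher and 3 lower (median 0.42). These are counts beside the 35.2% and 36.5% of all genes called in each direction. Of the 13008 protein-coding genes tested, 5242 were called higher and 4830 lower. No difference between the groups of genes was tested.

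Neighboring proteins of the large subunit did not all move together. At the stalk and its base, 4 of 5 genes were called higher: MRPL10, the stalk's anchor, at a log2 fold change of 0.63, MRPL12, which forms the stalk, at 0.52, MRPL54 at 0.55 and MRPL53 at 1.22. MRPL11, of the stalk base, was at 0.11 and was not called. MRPL12 shares 68.2% of its exon bases with AC139530.2 on its strand, which had 0 counts in every library. MRPL53 shares 45.2% with CCDC142, and the part of shared exons in these values was not tested. At the central protuberance MRPL27, MRPL38, MRPL46 and MRPL48 were called higher, with log2 fold changes of 0.43 to 1.00. MRPL18 (-0.45) and MRPL40 (-0.55) of the same structure were called lower. At the exit of the polypeptide tunnel MRPL17, MRPL22, MRPL45 and MRPL47 were called higher, with log2 fold changes of 0.38 to 0.96. MRPL24 (-0.58) was called lower there, and MRPL23 (0.046) was not called.

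MRPS18A, MRPS18B and MRPS18C are paralogs of related sequence. MRPS18C takes the place of the bacterial protein, whereas MRPS18A and MRPS18B take other places and are counted as mitochondria-specific by position. Only MRPS18C passed the test. MRPS18C stood at 16.9, 16.3 and 17.7 CPM in siControl and 24.9, 23.6 and 22.6 CPM in siSON (log2 fold change 0.49, SE 0.076, adjusted p = 0.000144). MRPS18B stood at 36.7, 35.5 and 36.5 CPM and 43.7, 37.9 and 39.3 CPM; its groups did not overlap but it was not called (log2 fold change 0.15, adjusted p = 0.0706, or 0.0373 with the replicate number as a block). MRPS18A stood at 26.4, 26.7 and 27.5 CPM and 29.6, 26.6 and 28.8 CPM, with overlapping groups (log2 fold change 0.078, adjusted p = 0.339). The differences among the 3 fold changes were not tested, and scaling by library total turned MRPS18A and MRPS18B slightly negative.

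The other 16 genes not called besides MRPS18B had log2 fold changes between -0.12 and 0.18. On the positive side were MRPL39 (0.18; adjusted p = 0.092, or 0.0370 with the replicate block), MRPL11 (0.11), MRPS18A (0.078), MRPL35 (0.076), MRPS34 (0.068), MRPS2 (0.064), MRPL23 (0.046), MRPS28 (0.043), MRPL41 (0.02), MRPL44 (0.016), MRPL42 (0.012) and MRPL34 (0.0024). On the negative side were MRPL33 (-0.039), MRPS5 (-0.047), MRPS31 (-0.075) and MRPL30 (-0.12). MRPS34, a mitochondria-specific small-subunit protein, illustrates them at 77.8, 67.7 and 71.04 CPM in siControl and 75.8, 75.3 and 75.9 CPM in siSON. Near the threshold, MRPL49 was called higher (log2 fold change 0.18, edgeR adjusted p = 0.049) although its groups overlapped, at 72.2, 82.6 and 86.2 CPM and 97.4, 85.3 and 90.9 CPM. Leaving out siControl replicate 1 took its fold change to 0.086.

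Levels per kilobase of the principal transcript spread widely, although the assembled ribosome holds nearly every protein in a single copy. In siControl they ran from 1.35 ± 0.0597 CPM per kilobase for MRPL38 to 136 ± 4.02 for MRPL51. The standard deviation of log2 CPM per kilobase over the 77 ribosomal members was 1.42 in siControl and 1.47 in siSON. MRPL38 shares 37.5% of its exon bases with AC087289.3 on its strand. MRPL53 and MRPS17, the next lowest in siControl, share 45.2% and 27.0% with genes on their strand. How shared reads were counted is not given, so these low levels are uncertain. MRPL51, a mitochondria-specific large-subunit protein, was the most abundant, at 172, 163 and 170.2 CPM in siControl and 190.5, 190.2 and 186 CPM in siSON. It was called higher by a small margin (log2 fold change 0.17, SE 0.048, adjusted p = 0.00864), but cyclic loess called it lower (-0.14, limma adjusted p = 0.0221). The library total turned it to -0.030 without a call, and without siControl replicate 2 its adjusted p was 0.095. MRPL33 stood next, at 117 ± 4.14 CPM per kilobase in siControl and 114 ± 0.996 in siSON, with 61.9, 58.2 and 61.8 CPM and 59.01, 58.5 and 59.5 CPM by library and no call, although cyclic loess and the library total each called it lower (-0.21, adjusted p = 0.00645, and -0.24, adjusted p = 0.00270). It shares 21.1% of its exon bases with BABAM2. MRPL20 (87.8 ± 4.74 and 134 ± 9.41 CPM per kilobase) rose from 67.03, 62.6 and 60.3 CPM to 104, 91.9 and 92.9 CPM (log2 fold change 0.61, SE 0.067, adjusted p = 9.34e-06). MRPL37 (71.4 ± 2.80 and 96.6 ± 2.13 CPM per kilobase) rose from 110.3, 102 and 105 CPM to 147, 140.5 and 143 CPM (log2 fold change 0.44, SE 0.052, adjusted p = 1.77e-05). In siControl MRPL33 exceeded MRPL20 in level per kilobase by more than their spread, and in siSON MRPL20 had the higher level. A level per kilobase depends on which transcript is taken as principal.

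**Figure D3:**
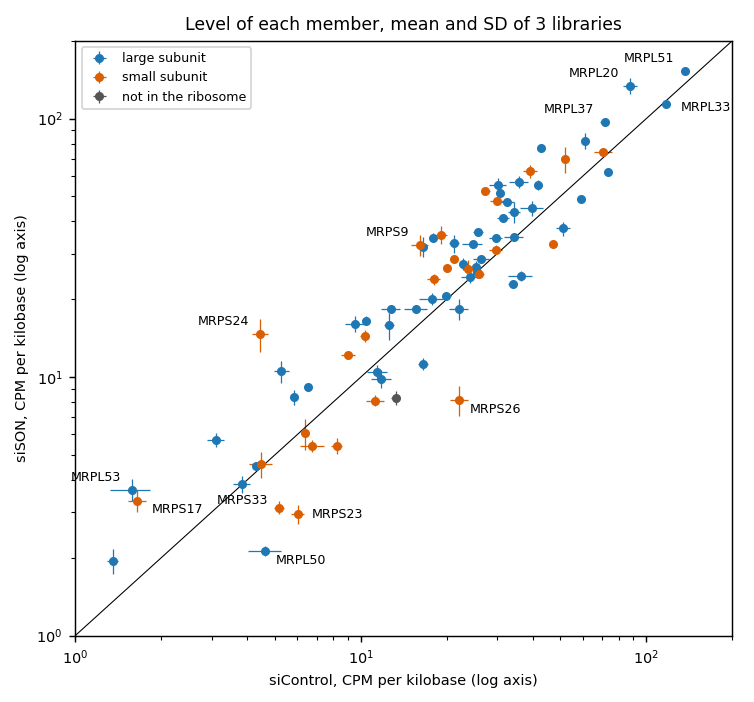
Mean level of each member in siControl (horizontal) and siSON (vertical), in CPM per kilobase of the principal transcript on log axes, with SD over 3 libraries as bars; the diagonal marks equal levels. Most points lie near the diagonal, with MRPS24 farthest above it and MRPS26 farthest below it.

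Rises outnumbered falls most among members with many exons, a description chosen after earlier results were known and without a test. Of the 23 members with 7 or more exons, 19 were called higher and 0 lower, with a median log2 fold change of 0.52. The other 4 of these 23 were MRPL39, MRPS5, MRPS18B and MRPS31. Of 33 members with 4 to 6 exons 14 were called higher and 10 lower (median 0.08), and of 22 with 1 to 3 exons 11 were called higher and 7 lower (median 0.12). In protein-coding genes as a whole the 8446 with 7 or more exons had 3618 called higher and 3054 lower (median 0.07). The 2844 with 4 to 6 exons had 1078 called higher and 1089 lower (median -0.03). The 1718 with 1 to 3 exons had 546 called higher and 687 lower (median -0.09). Across genes, Spearman's rho between exon number and log2 fold change was 0.35 over the 78 members and 0.046 over all 13008 protein-coding genes. These correlations are over genes, which are not independent replicates and share the same 6 libraries.

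The members are compact genes. Their median span was 11937 bp against 33581 bp for the protein-coding genes tested, with a median of 5 exons against 9 and a median mean intron length of 1783 bp against 3139 bp. Transcript GC content was similar, with medians of 49.6% and 48.9%. Over all protein-coding genes the log2 fold change had a Spearman's rho of 0.26 with mean intron length and -0.21 with GC content. Over the members those values were 0.016 and 0.087.

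**Figure D4:**
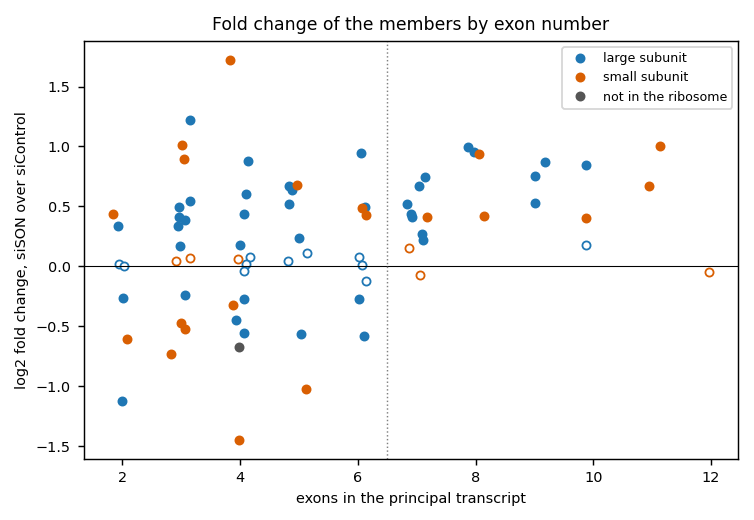
Log2 fold change (siSON over siControl) of each member against the number of exons in its principal transcript, colored by subunit; open circles have an adjusted p of 0.05 or above and the dotted line separates 6 from 7 exons. To the right of the line 19 filled points lie above 0 and none lies below.

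Some members start back to back with another gene, at times with overlapping ends. How common this is over all genes was not measured. A coding gene on the opposite strand began within 1000 bp of 29 members, and 28 of them had a partner that was tested. In 20 of these both genes were called, 10 times in the same direction and 10 times in opposite directions. The pair MRPL46 and MRPS11 is counted from each side. Of the 28 partners 25 were called, 12 higher and 13 lower. For scale, 78.2% of all members and 77.4% of all protein-coding genes tested were called. Spearman's rho between member and partner was -0.038 over the 28, as a description. MRPL43 fell (-0.24 on the log2 scale) while TWNK, the mitochondrial DNA helicase, rose (1.41). Their starts are 148 bp apart and the genes overlap: MRPL43 shares 36.9% of its exon bases with TWNK and SEMA4G on the opposite strand. MRPS12 rose (0.44) while SARS2, the mitochondrial seryl-tRNA synthetase, fell (-1.33). Their starts are 348 bp apart and these genes overlap too: MRPS12 shares 16.3% of its exon bases with SARS2 on the opposite strand. MRPL36 (0.33) and the complex I gene NDUFS6 (0.39), whose starts are 34 bp apart, both rose, as did MRPL47 (0.41) and the complex I gene NDUFB5 (0.21), 36 bp apart. These pairs were chosen after their values were seen. Where the strand setting of the counting is not given, reads from overlapping genes on opposite strands cannot be told apart.

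MRPL46 of the large subunit and MRPS11 of the small subunit form the only pair in which both partners are members. The 33 bases between their starts, chr15:88467420-88467452 on the plus strand, are printed with MRPL46 to the left and MRPS11 to the right and held none of the 4 motifs:
MRPL46 to MRPS11: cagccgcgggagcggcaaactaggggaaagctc
MRPL46 stood at 3.07, 3.02 and 3.41 CPM in siControl and 5.96, 6.13 and 5.43 CPM in siSON, and MRPS11 at 33.9, 30.9 and 34.01 CPM and 45.6, 42.8 and 44.4 CPM. Both were called higher without overlap, MRPL46 by 0.88 on the log2 scale (SE 0.124, adjusted p = 6.03e-05) and MRPS11 by 0.43 (SE 0.067, adjusted p = 0.000142).

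The mitoribosome also holds proteins whose genes have other names, and they went both ways. DAP3, a GTP-binding protein of the small subunit, stood at 83.3, 76.3 and 84.05 CPM in siControl and 166, 149 and 153 CPM in siSON (log2 fold change 0.94, SE 0.062, adjusted p = 1.45e-07). PTCD3, also of the small subunit, rose from 55.05, 51.999 and 53.95 CPM to 77.5, 75.7 and 73.3 CPM (log2 fold change 0.49, SE 0.056, adjusted p = 1.11e-05). CHCHD1 of the small subunit fell from 31.5, 31.4 and 30.6 CPM to 13.9, 14.4 and 12.4 CPM (log2 fold change -1.20, SE 0.079, adjusted p = 1.40e-07). AURKAIP1 of the small subunit fell from 80.8, 78.5 and 82.8 CPM to 59.6, 56.9 and 57.5 CPM (log2 fold change -0.48, SE 0.055, adjusted p = 1.23e-05). GADD45GIP1 of the large subunit was not called, at 0.014 (adjusted p = 0.832). It was called lower with the library total (-0.18, edgeR adjusted p = 0.0104) and with cyclic loess (-0.17, limma adjusted p = 0.0135). Of these 5 genes 2 were therefore called higher and 2 lower in the main fit, and no group overlapped in the 4 that were called. With either of the other scalings 2 were called higher and 3 lower.

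Both mitochondrial ribosomal RNAs rose, as counted in libraries made with an mRNA kit. MT-RNR1, the RNA of the small subunit, stood at 426, 571 and 569.9 CPM in siControl and 999, 1127 and 1095 CPM in siSON (log2 fold change 1.04, SE 0.106, adjusted p = 1.32e-05). MT-RNR2, the RNA of the large subunit, stood at 4103, 4794 and 4747 CPM and 11669, 12351 and 10949.5 CPM (log2 fold change 1.36, SE 0.069, adjusted p = 2.06e-08). The groups did not overlap for either. The 13 mitochondrially encoded messenger RNAs, which the mitoribosome translates, had 4 called higher and 5 lower with log2 fold changes between -0.39 and 0.20. The share called was 69.2%, against 71.7% of all genes tested. Groups did not overlap in 6 of the 13 (46.2%), against 75.1% of all genes tested. The 9 calls became 5 without siControl replicate 2, siControl replicate 3 or siSON replicate 2, and 13, 6 higher and 7 lower, with the replicate block. Among them MT-ATP8 (-0.34), MT-ATP6 (-0.24) and MT-ND6 (-0.39) had the smallest adjusted p-values. None of the 4 rises was called with cyclic loess or with the library total alone, where 13 and 7 of the 13 were called lower.

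Factors that build the mitoribosome changed in both directions. Of 30 assembly factors 13 were called higher and 8 lower, with a median log2 fold change of 0.15, which became 10 and 14 and a median of -0.044 with the library total. The 3 with the smallest adjusted p-values were all among the falls. MTG1, a GTPase of large-subunit assembly, fell from 11.4, 9.77 and 9.65 CPM to 1.62, 1.57 and 1.08 CPM (log2 fold change -2.84, SE 0.159, adjusted p = 4.27e-08), and it shares 29.9% of its exon bases with AL360181.3 on its strand. MPV17L2 of the inner membrane fell from 20.3, 20.7 and 21.2 CPM to 6.15, 7.08 and 6.31 CPM (log2 fold change -1.67), and the helicase DHX30 fell from 94.5, 93.3 and 96.2 CPM to 50.6, 50.3 and 50.6 CPM (log2 fold change -0.91). Of 18 translation factors 9 were called higher and 2 lower (median 0.18), or 7 and 6 with the library total (median -0.018). The methionine aminopeptidase METAP1D (1.25), the elongation factor TSFM (0.65) and the RNA-binding protein LRPPRC (0.49) had the smallest adjusted p-values there, all with a rise. Of 6 factors of mitochondrial transcription 1 was called higher and 3 lower (median -0.14), TFB2M at 1.09, MTERF2 at -1.49 and TEFM at -0.50 being the 3 with the smallest adjusted p-values. TEFM was not called with cyclic loess. In the main fit 70% of the assembly factors, 61.1% of the translation factors and 66.7% of the transcription factors were called. Over all genes tested 71.7% were called, and over protein-coding genes 77.4%.

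**Figure D5:**
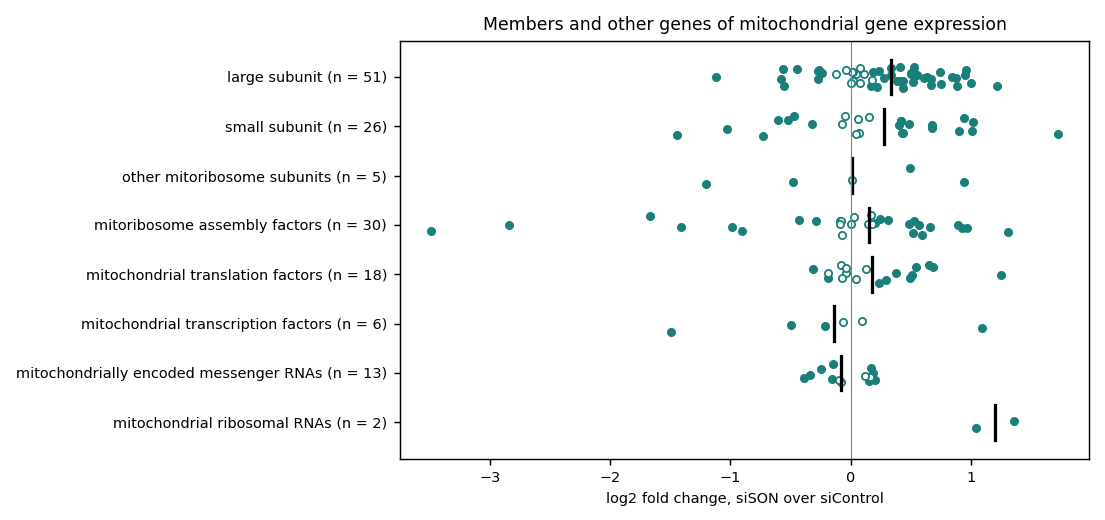
Log2 fold change (siSON over siControl) of each gene in the members and in the lists of other genes of mitochondrial gene expression; each point is a gene, open circles have an adjusted p of 0.05 or above and the black bar is the list's median. The ribosomal RNAs lie at 1.04 and 1.36, and every protein list holds genes on both sides of 0.

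The ribosomal proteins of the cytosol and the nuclear subunits of the respiratory chain give the scale for comparison. Of 83 cytosolic ribosomal protein genes tested 63 were called higher and 5 lower, with a median log2 fold change of 0.37. That direction rests on the scaling, since cyclic loess gave 24 higher and 27 lower and a median of 0.02, whereas the library total gave 47 and 12 and a median of 0.17. Of 79 respiratory chain genes tested 43 were called higher and 17 lower (median 0.16), which became 27 and 28 with cyclic loess and 25 and 28 with the library total. For the mitochondrial ribosomal protein genes rises outnumbered falls under each of these scalings, at 44 and 17, 43 and 20, and 36 and 23. In the main fit 81.9% of the cytosolic and 75.9% of the respiratory chain genes were called, against 71.7% of all genes tested. The differences between these lists were not tested.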

How the data were processed

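Gene-level RNA-seq was analysed from 3 siSON and 3 siControl libraries of RPE-1 cells. The authors deposited raw whole-number counts per gene, 1 column per library, with no normalization. Per the submitters' processing notes, the build was hg38 and the tools were cutadapt 1.16, STAR 2.5.2a, featureCounts 1.6.2 and DESeq2 1.28.1; their settings, the strand setting and the treatment of shared or multi-mapping reads are not given in the sources used here. All 58735 identifiers matched GENCODE 29 (99.5% of names), the source of positions, exons and transcript lengths.

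Counts were fitted in R 4.3.3 with edgeR 4.0.16 (filterByExpr with a minimum count of 10, TMM, robust quasi-likelihood fit, group as the only term, Benjamini-Hochberg adjustment over 16591 genes). The scripts were tested on simulated data. Standard errors are the absolute log2 fold change over the square root of F. CPM values use TMM-scaled library sizes. No pair of replicates agreed within counting noise (chi-square per degree of freedom 7.21 to 26.3). Alternatives used DESeq2 1.42.0, limma 3.58.1, other scalings and filters, and each library left out. The members and all lists were chosen with earlier results of these data known. Library values are given for SON, the 8 largest rises and 8 largest falls among called members, the 4 most abundant members and the MRPS18 paralogs; every member not called is named, as are the 3 genes with the smallest adjusted p of each list, the 5 other mitoribosome subunits and both ribosomal RNAs.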

Additional observations from a re-analysis of the deposited data

How the results depend on the processing

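Of the 61 members called, 51 kept their call and direction under all 14 alternatives that test against no change, and 54 did when scaling by library total and cyclic loess are set aside. Testing against a 1.5-fold change left 18 called, 14 higher and 4 lower. Scaling by library total lowered the members' median to 0.11. Leaving out each library in turn gave 56 to 62 called, 39 to 45 higher, 15 to 18 lower, 64 to 68 without overlap, a median of 0.26 to 0.36 and 4 to 9 with at least a 2-fold change, the 4 without siSON replicate 1. Calls were lost for MRPL55, MRPL51, MRPL13, MRPL49 and MRPS30 without siControl replicate 2, for MRPL13 and MRPL49 without siControl replicate 1, for MRPL16, MRPL57 and MRPS30 without siControl replicate 3, for MRPL16, MRPL49 and MRPL57 without siSON replicate 1, and for MRPL49 and MRPS30 without siSON replicate 3. Calls were gained for MRPL30 without siControl replicate 1, MRPL39 without siSON replicate 1 and MRPS18B without siSON replicate 2. MRPL33 and MRPS5 were called lower with both the library total and cyclic loess. With DESeq2 and with RLE factors MRPL49 was no longer called (adjusted p = 0.0618 and 0.0567).

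With cyclic loess all 13 mitochondrially encoded messenger RNAs were negative, against log2 fold changes of -0.39 to 0.20 in the main fit. Among the members and the other mitoribosome subunits, signs turned only in genes within 0.19 of 0 on the log2 scale. With the library total these were MRPL35 (-0.12), MRPL44 (-0.18), MRPS18B (-0.044), MRPS18A (-0.12), MRPS28 (-0.15), MRPS2 (-0.13), MRPL41 (-0.18), MRPL23 (-0.15), MRPL49 (-0.016), MRPL11 (-0.082), MRPL51 (-0.030), MRPL42 (-0.18), MRPS34 (-0.13), MRPL34 (-0.19), MRPL39 (-0.019) and GADD45GIP1 (-0.18). With cyclic loess they were MRPL44 (-0.089), MRPS2 (-0.057), MRPL41 (-0.089), MRPL49 (-0.035), MRPL51 (-0.14), MRPL42 (-0.16), MRPS31 (0.15), MRPS34 (-0.13) and GADD45GIP1 (-0.17). Of these turned genes, MRPL44, MRPL41, MRPL34 and GADD45GIP1 were called lower with the library total, and MRPL51 and GADD45GIP1 with cyclic loess. With a mean count of at least 50 they were MRPL44 (-0.041), MRPS28 (-0.015), MRPL41 (-0.037), MRPL23 (-0.011), MRPL42 (-0.045), MRPL34 (-0.054) and GADD45GIP1 (-0.043). Leaving out single libraries gave MRPL44 -0.058 to 0.069, MRPS28 -0.046 to 0.12, MRPL41 -0.029 to 0.057, MRPL23 -0.0043 to 0.074, MRPL42 -0.068 to 0.088, MRPS31 -0.14 to 0.044, MRPL34 -0.036 to 0.053 and GADD45GIP1 -0.020 to 0.040. Apart from scaling, the cause was not tested.

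The groups share replicate numbers whose meaning the labels do not give. In the deposited library names, same-numbered libraries of both groups also carry adjacent sample numbers, whose meaning is likewise not given. Deviations of same-numbered libraries correlated at 0.194, 0.0461 and 0.118 (log2 CPM, prior count 2; 0.323, 0.129 and 0.230 with log2 of CPM + 0.5), and every library correlated best with its own number, a hint from the data and not from the design. The first measure leaves a pair under 0.1 and the second does not, so whether the numbers pair the libraries is undecided here, and the fit without the block was kept as designed. With the replicate number as a block 63 members were called, 46 higher and 17 lower, MRPL39 and MRPS18B being added and no call lost, with a median of 0.30. Depth limits the members of low level most, such as MRPL53, MRPS17 and MRPL38, whose standard errors were 0.13 to 0.16. These genes also share exon bases with genes on their strand (45.2%, 27.0% and 37.5%), and the part of shared exons was not tested.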
